A study of Canis lupus familiaris with 6 samples.

Results

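The genes of fatty acid uptake and oxidation were followed in the left ventricle of Great Dane dogs with cardiomyopathy. The list held 32 genes, chosen by function: genes of uptake and activation, the carnitine shuttle, beta-oxidation enzymes, electron transfer and transcriptional regulators. A gene was measured by every probe set that the array annotation gives that gene symbol alone, and its value was the mean of these probe sets. This gave 31 of the 32 genes, in 72 of 42924 probe sets, beside 15115 named genes on the array in all. ACOT2 had no such probe set. The affected group held 3 Great Danes, a female of 9 years (affected 1) and males of 7 years (affected 2 and affected 3). The control group held a male Labrador retriever of 12 years (control 1), a female St. Bernard of 10 years (control 2) and a male Greater Swiss Mountain dog of 4 years (control 3). No control was a Great Dane, so breed and disease cannot be told apart, and the labels give neither treatment nor stage of disease. Each dog gave 1 array of total RNA from frozen left ventricle. The dogs' RNA is of whole tissue, in which fewer cells of a type and less RNA per cell cannot be told apart.

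The working heart draws most of its energy from long-chain fatty acids. Lipoprotein lipase releases them from circulating triglyceride, membrane and cytosolic carriers bring them into the cardiomyocyte, and an acyl-CoA synthetase activates them. The carnitine shuttle then carries the acyl group across the mitochondrial membranes, a spiral of dehydrogenases, hydratases and thiolases shortens it, and the electron transfer flavoprotein passes the electrons on to the respiratory chain. The nuclear receptors PPAR-alpha and ERR-alpha, with the coactivator PGC-1-alpha, are known to switch on many of these genes, and a lower expression of the pathway is a known feature of the failing heart in several species.

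Deposited values are on the log2 scale and centred, so that each probe set has a median of 0 over the 6 arrays. They hold no level, so 1 gene could not be set against another and markers of cardiac muscle could not be checked for presence. Differences below are log2 values, affected minus control, with the standard error (SE) or the 95% interval of a limma fit to all 15115 genes, and the threshold was a Benjamini-Hochberg adjusted p under 0.05. A large share of the array moved with the controls for background, though values without a level cannot show that it lay there. Of all probe sets, 41.8% followed the control probe sets of unexpressed tags at a correlation over 0.9 across the arrays, against 6.94% of the fatty acid probe sets (5 of 72). The tags themselves were at -0.03, -0.03 and -0.01 on the affected arrays and at 0.06, 0.01 and 0.13 on the control arrays, so this background was itself 0.09 lower in affected hearts. Spiked bacterial control transcripts had a median of 0.17, -0.09 and 0.52 on the affected arrays and of -0.01, 0.02 and -0.01 on the control arrays. The 3' minus 5' difference of beta-actin, a sign of RNA integrity, was 0.36, -0.22 and -0.05 on the affected arrays and 0.34, 0.05 and -0.31 on the control arrays. That of GAPDH was 0.057, 0.019 and -0.0020 on the affected arrays and -0.045, -0.010 and -0.082 on the control arrays. The GAPDH values of the groups did not overlap, at a difference of 0.071 (two-sided exact permutation p = 0.1, the smallest that 3 against 3 allows), and the part of RNA integrity in the gene values was not tested.

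Setting affected against control hearts asks whether transcripts of fatty acid use differ in the diseased ventricle. No fatty acid gene passed the threshold (limma adjusted p between 0.322 and 0.936), and neither did any other of the 15115 genes. The differences of the 31 genes were modest, between -0.54 and 0.63, with a median size of 0.19 beside a median SE of 0.19. Most pointed down: 25 of the 31 genes were below 0, with a median of -0.16. Of all genes, 65% were below 0, with a median of -0.07. With each array centred on its median, 21 of the 31 genes were below 0 (67.7%, against 51.1% of all genes). Their median was then -0.08, against -0.0022 for all genes. With quantile normalization 24 of the 31 were below 0 (77.4%, against 55.6% of all genes). Their median was then -0.20, against -0.012 for all genes. Array weights were also estimated from the genes left without the probe sets that followed the unexpressed tags, called genes off the background. With these weights 19 of the 31 were below 0 (61.3%, against 66.4% of all genes), with a median of -0.09. Without the probe sets that followed the unexpressed tags, 25 of the 31 genes were again below 0 with a median of -0.15. Of the 10075 genes left, 43.8% were below 0 with a median of 0.05. The tags were lower on every affected array than on every control array, so this filter takes out lower probe sets by its design. Probe sets below 0 fell from 28756 to 10800 with the 17956 removed. The 43.8% is therefore shifted by the filter and is no independent background. At an unadjusted p under 0.05, 1 fatty acid gene was lower and 2 were higher, against 5.64% of all genes lower and 4.88% higher, shares of 3.23% and 6.45% of the 31 that are near the background. Of single probe sets, 5 of 72 were lower (6.94%, against 6.32% of all probe sets) and 2 higher (2.78%, against 4.53%). In 19 genes all probe sets pointed down, in 5 all pointed up, and in 7 they pointed both ways.

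**Figure D1:**
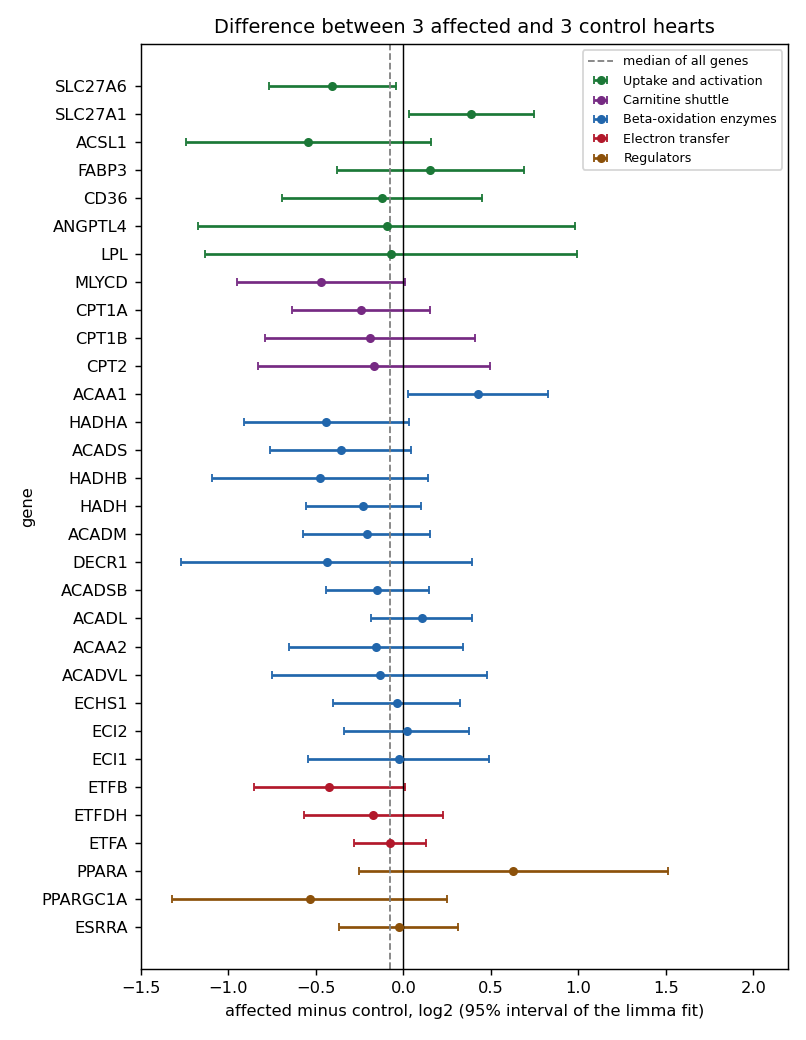
Affected minus control difference of each of the 31 genes on the log2 scale (points) with the 95% interval of the limma fit (bars), 3 affected and 3 control hearts, coloured by role. The dashed line is the median of all genes at -0.07; the intervals of SLC27A6, SLC27A1 and ACAA1 exclude 0 before adjustment, and none of the 31 genes passed after it.

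Among the genes of uptake and activation, the 2 fatty acid transport proteins of the list ran in opposite directions. SLC27A6, the transport protein known for its expression in heart muscle, was at -0.07, -0.14 and -0.05 in the affected hearts, against 0.43, 0.01 and 0.51 in the control hearts. Every affected dog was below every control dog, with control 2 close to the affected dogs. The difference was -0.41 (95% interval -0.77 to -0.04), a fold of 0.755, with a limma adjusted p of 0.322. Of its 2 probe sets, 1 followed the unexpressed tags (correlation 0.99) and the other had a correlation of 0.83 with them. With the other probe set alone the groups overlapped, at a difference of -0.47.

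SLC27A1, a transport protein of muscle and fat known to respond to insulin, was at 0.08, 0.16 and 0.49 in the affected hearts, against -0.12, -0.32 and 0.00 in the control hearts. The groups did not overlap, and affected 3 was the highest. The difference was 0.39 (95% interval 0.03 to 0.74), a fold of 1.31, with a limma adjusted p of 0.322. Its 3 probe sets differed by 0.63, 0.09 and 0.44, so the middle one carried little of it. A lack of overlap was common on this array: it was seen in 41.7% of all genes in the lower direction and in 5.8% in the higher one. Of the 31 fatty acid genes, 4 were lower (12.9%) and 2 were higher (6.45%) in this way. Without the probe sets that followed the unexpressed tags these were 3 (9.68%) and 2, against 11.6% and 9.6% of the genes left, shares that the filter itself shifts.

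ACSL1, the main long-chain acyl-CoA synthetase of the heart, was at -0.80, 0.02 and -0.12 in the affected hearts, against -0.12, 0.52 and 0.32 in the control hearts. Affected 1 was far lower than the other dogs, affected 2 lay between control 1 and control 3, and affected 3 was level with control 1. The difference was -0.54 (95% interval -1.24 to 0.16, limma adjusted p = 0.322) and was -0.29 without affected 1. All 3 probe sets of ACSL1 were lower, by -0.31, -0.79 and -0.53.

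CD36, the scavenger receptor that takes long-chain fatty acids into cardiomyocytes, was at -0.08, -0.13 and 0.20 in the affected hearts, against -0.28, 0.53 and 0.08 in the control hearts. The control dogs spanned the affected ones. The difference of CD36 was -0.12 (95% interval -0.69 to 0.45) and was 0.09 without control 2. FABP3, the heart-type cytosolic fatty acid binding protein, was at -0.14, 0.42 and 0.03 in the affected hearts, against -0.03, 0.24 and -0.36 in the control hearts. Here too the groups overlapped, at a difference of 0.15 (95% interval -0.38 to 0.69).

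Lipoprotein lipase and its inhibitor varied between dogs more than between groups. LPL was at -0.01, -0.98 and 0.03 in the affected hearts, against 0.01, -0.95 and 0.18 in the control hearts. In each group 1 dog was low by almost 1 (affected 2 and control 2) and the other 4 dogs were alike, so that the difference was -0.07 (95% interval -1.13 to 0.99). ANGPTL4, a secreted inhibitor of lipoprotein lipase and a known PPAR target, was at 0.25, -1.11 and 0.37 in the affected hearts, against -0.22, -0.13 and 0.14 in the control hearts. Affected 2 was the lowest dog, and affected 1 and affected 3 were above all controls. The difference of -0.10 (95% interval -1.17 to 0.98) became 0.38 without affected 2 (limma adjusted p = 0.458). Of the 3 ANGPTL4 probe sets, 2 carried this, at -1.28 and -1.86 on affected 2, and the last was at -0.19 there.

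All 4 genes of the carnitine shuttle and its control were below 0, with a median of -0.21, which was -0.43 without control 1 and -0.13 without control 3. CPT1B, the muscle form of carnitine palmitoyltransferase 1, which makes the acylcarnitine that crosses into mitochondria, was at -0.37, -0.06 and 0.06 in the affected hearts, against -0.40, 0.23 and 0.37 in the control hearts. Control 1 was as low as affected 1, and the difference was -0.19 (95% interval -0.79 to 0.41). It was -0.42 without control 1 and -0.036 without control 3. CPT1A, the liver form, was at 0.00, -0.29 and 0.09 in the affected hearts, against -0.06, 0.20 and 0.38 in the control hearts. Its difference was -0.24 (95% interval -0.64 to 0.16), and of its 2 probe sets the one at -0.37 followed the unexpressed tags while the other was at -0.11.

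CPT2, which turns acylcarnitine back into acyl-CoA in the mitochondrial matrix, was at 0.01, -0.12 and -0.03 in the affected hearts, against -0.41, 0.60 and 0.20 in the control hearts. The affected dogs lay close together between control 1 and control 3, and the difference was -0.17 (95% interval -0.83 to 0.49), -0.44 without control 1 and 0.07 without control 2. MLYCD encodes malonyl-CoA decarboxylase, which removes the malonyl-CoA that inhibits carnitine palmitoyltransferase 1. It was at -0.58, -0.14 and -0.04 in the affected hearts, against 0.14, 0.49 and 0.03 in the control hearts. The groups of MLYCD did not overlap, at a difference of -0.47 (95% interval -0.95 to 0.01, limma adjusted p = 0.322), and the difference was -0.31 without affected 1.

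**Figure D2:**
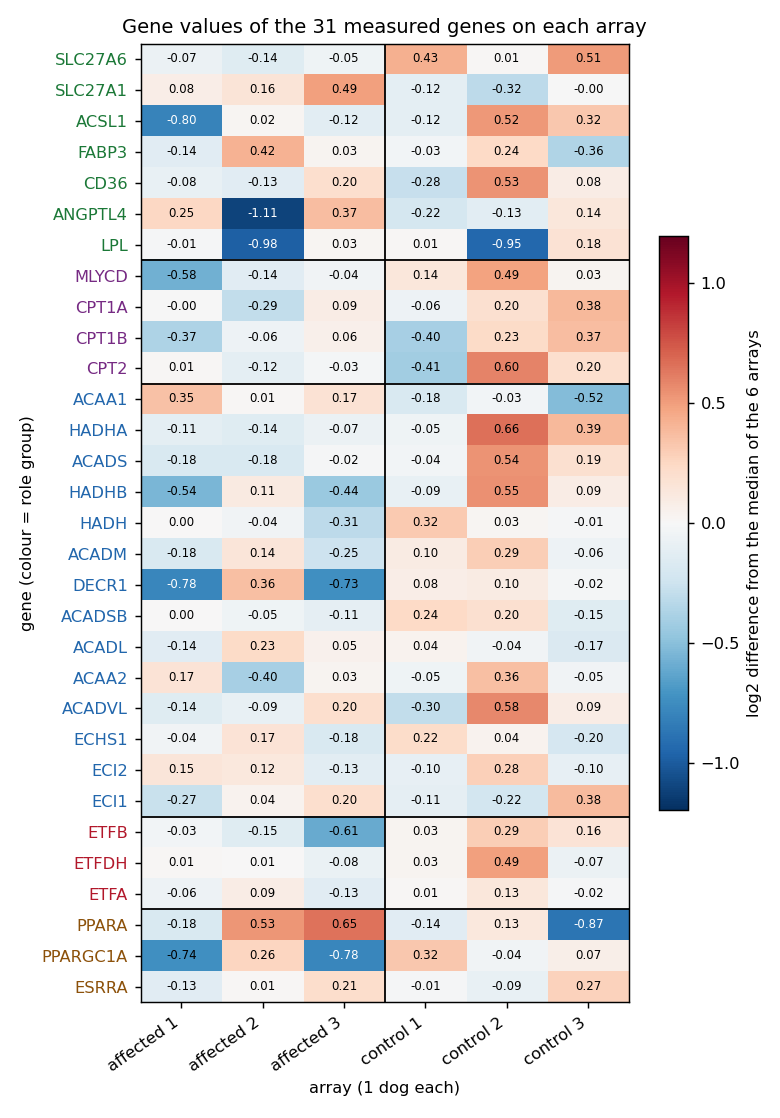
Gene values of the 31 genes (rows, grouped and coloured by role) on each of the 6 arrays (columns, affected left of control), as log2 differences from the median of the 6 arrays. The highest value lay on control 2 in 14 genes, and DECR1 and PPARGC1A were below -0.7 on affected 1 and affected 3 only.

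The beta-oxidation enzymes were 14, of which 11 were below 0 with a median of -0.15. HADHA and HADHB encode the 2 subunits of the mitochondrial trifunctional protein, which carries out the last 3 steps on long chains. HADHA was at -0.11, -0.14 and -0.07 in the affected hearts, against -0.05, 0.66 and 0.39 in the control hearts. The groups did not overlap, but control 1 was just above affected 3, and the difference was -0.44 (95% interval -0.91 to 0.03, limma adjusted p = 0.322). Its 3 probe sets were all lower, at -0.22, -0.67 and -0.42. HADHB was at -0.54, 0.11 and -0.44 in the affected hearts, against -0.09, 0.55 and 0.09 in the control hearts. Here affected 1 and affected 3 were below all controls and affected 2 was not, at a difference of -0.48 (95% interval -1.09 to 0.14).

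Acyl-CoA dehydrogenases open each turn of the spiral, by chain length. ACADVL, for very long chains, was at -0.14, -0.09 and 0.20 in the affected hearts, against -0.30, 0.58 and 0.09 in the control hearts. The control dogs of ACADVL spanned the affected ones, at a difference of -0.14 (95% interval -0.75 to 0.48), -0.35 without control 1 and 0.09 without control 2. ACADM, for medium chains, was at -0.18, 0.14 and -0.25 in the affected hearts, against 0.10, 0.29 and -0.06 in the control hearts. The ACADM groups overlapped through affected 2, with a difference of -0.21 (95% interval -0.57 to 0.15) and all 3 probe sets lower. ACADS, for short chains, differed by -0.36 (95% interval -0.76 to 0.04), with 4 of 4 probe sets lower and control 2 highest at 0.54. ACADL, for long chains, differed by 0.10, and ACADSB, for short branched chains, by -0.15.

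DECR1, the mitochondrial dienoyl-CoA reductase needed for unsaturated fatty acids, had the widest spread of the enzymes among affected dogs (SD 0.65, against 0.07 in control dogs). It was at -0.78, 0.36 and -0.73 in the affected hearts, against 0.08, 0.10 and -0.02 in the control hearts. Affected 1 and affected 3 were far below the controls, while affected 2 was above all of them, and both probe sets showed this. The difference was -0.44 (95% interval -1.27 to 0.39) and was -0.81 without affected 2 (limma adjusted p = 0.199), -0.24 without affected 1 and -0.26 without affected 3.

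ACAA1, the thiolase of peroxisomes, ran opposite to most of the mitochondrial enzymes. It was at 0.35, 0.01 and 0.17 in the affected hearts, against -0.18, -0.03 and -0.52 in the control hearts. The groups did not overlap, although affected 2 and control 2 were close. The difference was 0.43 (95% interval 0.03 to 0.82), a fold of 1.34, with a limma adjusted p of 0.322. Its 3 probe sets differed by 0.48, 0.37 and 0.42, and all 3 ran opposite to the unexpressed tags over the arrays (correlations -0.73, -0.99 and -0.92). ACAA2, the mitochondrial thiolase, differed by -0.16 with affected 2 lowest at -0.40, and by 0.01 without that dog. HADH, the short-chain hydroxyacyl-CoA dehydrogenase, differed by -0.23. The remaining enzymes were close to 0: the hydratase ECHS1 differed by -0.04, and the isomerases ECI1 and ECI2 by -0.03 and 0.02.

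The electron transfer genes were all below 0, with a median of -0.17. ETFB, the beta subunit of the electron transfer flavoprotein, was at -0.03, -0.15 and -0.61 in the affected hearts, against 0.03, 0.29 and 0.16 in the control hearts. The groups did not overlap and affected 3 was by far the lowest. The difference of ETFB was -0.42 (95% interval -0.86 to 0.01, limma adjusted p = 0.322), and it was -0.25 without affected 3. The alpha subunit ETFA differed by -0.08 (95% interval -0.28 to 0.13), and ETFDH, which hands the electrons to ubiquinone, by -0.17 (95% interval -0.57 to 0.22) with control 2 highest at 0.49 and a difference of -0.0030 without that dog.

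Of the regulators, PPARA had the highest difference of all 31 genes and PPARGC1A the lowest after ACSL1. PPARGC1A, which encodes PGC-1-alpha, a coactivator of mitochondrial and fatty acid genes, was at -0.74, 0.26 and -0.78 in the affected hearts, against 0.32, -0.04 and 0.07 in the control hearts. Affected 1 and affected 3 were far below the controls and affected 2 was among them. The difference was -0.54 (95% interval -1.32 to 0.25, limma adjusted p = 0.322), and it was -0.87 without affected 2 (limma adjusted p = 0.214), -0.38 without affected 1 and -0.36 without affected 3. Its 3 probe sets differed by -0.92, -0.19 and -0.49.

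PPARA, the fatty acid sensing nuclear receptor, was at -0.18, 0.53 and 0.65 in the affected hearts, against -0.14, 0.13 and -0.87 in the control hearts. Affected 2 and affected 3 were above all controls, affected 1 was not, and control 3 was the lowest dog. The difference was 0.63 (95% interval -0.25 to 1.51, limma adjusted p = 0.322), which was 0.34 without control 3 and 0.89 without affected 1. ESRRA, which encodes ERR-alpha, was at -0.13, 0.01 and 0.21 in the affected hearts, against -0.01, -0.09 and 0.27 in the control hearts. The ESRRA groups overlapped throughout, at a difference of -0.03 (95% interval -0.37 to 0.31). The 3 regulators had a median of -0.03 (0.04 with quantile normalization and 0.05 with arrays centred), between a lower PPARGC1A and a higher PPARA, neither past the threshold.

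**Figure D3:**
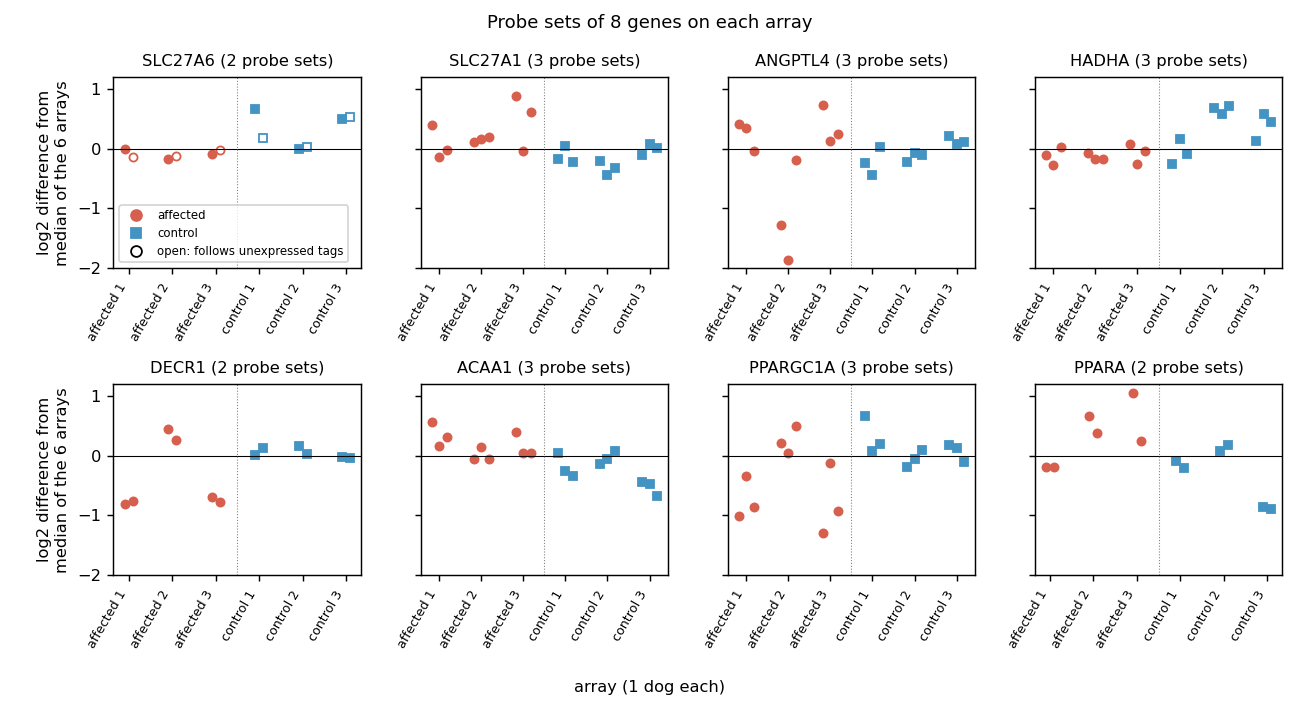
Values of each probe set of 8 genes on the 6 arrays, as log2 differences from the median of the arrays; open symbols are probe sets that followed the unexpressed tags. Probe sets of DECR1 and of PPARGC1A were low on affected 1 and affected 3, and 2 of the 3 ANGPTL4 probe sets were low on affected 2.

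Set side by side, the role groups differed little from each other. The medians were -0.10 for uptake and activation, -0.21 for the carnitine shuttle, -0.15 for the beta-oxidation enzymes, -0.17 for electron transfer and -0.03 for the regulators. Single dogs of each group lay apart from its other dogs. The median of the beta-oxidation enzymes was -0.13, 0.03 and -0.09 in the affected hearts, against -0.04, 0.24 and -0.04 in the control hearts. That of electron transfer was -0.03, 0.01 and -0.13 in the affected hearts, against 0.03, 0.29 and -0.02 in the control hearts. Control 2 was the highest dog in both groups of genes, and the other controls lay within or close to the range of the affected dogs. The carnitine shuttle had medians of -0.18, -0.13 and 0.02 in the affected hearts, against -0.23, 0.36 and 0.28 in the control hearts, with control 1 the lowest of all.

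**Figure D4:**
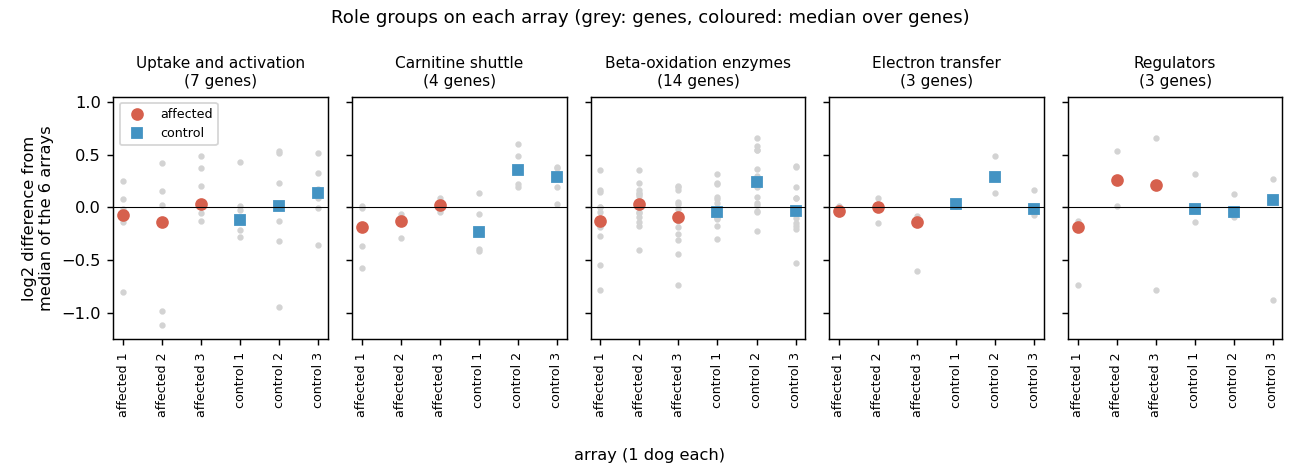
Values of the genes of each role group (grey points) and their median (red circles for affected, blue squares for control hearts) on each array, as log2 differences from the median of the 6 arrays. The beta-oxidation enzymes had medians of -0.13, 0.03 and -0.09 in the affected hearts and of -0.04, 0.24 and -0.04 in the control hearts.

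Control 2 held the highest value in 14 of the 31 genes (45.2%), among them HADHA, HADHB, ACADVL, ACADM, ACADS, CPT2, CD36, ACSL1 and all 3 electron transfer genes. It held the highest value in 8.77% of all genes, and in 14.0% of the genes left without the probe sets that followed the unexpressed tags. This pattern was picked out after the values were seen. Leaving out the highest control raises the difference of such a gene by construction. Without control 2 the differences of HADHA, HADHB, ACADS and ACADM were -0.28, -0.29, -0.20 and -0.12. Then 22 of the 31 genes were below 0 and the median was -0.11, where that of all genes was -0.09. The electron transfer median was then -0.03.

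A second pattern, also picked out after the values were seen, set affected 1 and affected 3 against affected 2. In 6 genes, which were ACSL1, HADHB, ACADM, DECR1, ETFA and PPARGC1A, affected 1 and affected 3 lay below all controls and affected 2 did not. These are 19.4% of the 31 genes, against 5.49% of all genes. Of the genes left without the probe sets that followed the unexpressed tags, 8.30% did so, a share that the filter itself shifts. In 4 genes, which were ANGPTL4, LPL, CPT1A and ACAA2, affected 2 alone lay below all controls. These are 12.9% of the 31 genes, against 5.13% of all genes and 7.18% of the genes left. LPL was among these by a narrow margin, at -0.98 on affected 2 and -0.95 on control 2. ACSL1 was among the 6 genes by -0.124 on affected 3 against -0.116 on control 1. Affected 1 and affected 3 were also the arrays with the higher spiked control transcripts, at 0.17 and 0.52, whose part in this was not tested.

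Beyond these genes, 78 of 89 other genes of fatty acid handling were measured. None passed the threshold in limma. At an unadjusted p under 0.05 there were 3 lower and 1 higher (3.85% and 1.28%, against 5.64% and 4.88% of all genes). Of the 78, 47 were below 0 (60.3%, against 65% of all genes), with a median of -0.067, against -0.075 for all genes. PLIN3, a lipid droplet coat protein, was at 0.33, 0.25 and 1.12 in the affected hearts, against -0.46, -0.96 and -0.08 in the control hearts, a difference of 1.06 (SE 0.33, limma adjusted p = 0.322) without overlap. EHHADH, the bifunctional enzyme of peroxisomal oxidation and a known PPAR-alpha target, was at -0.52, 0.01 and -0.43 in the affected hearts, against 0.36, -0.01 and 0.49 in the control hearts. EHHADH differed by -0.60 (SE 0.20), with affected 1 and affected 3 low as in DECR1 and PPARGC1A, and affected 2 just above control 2. ACOT7, an acyl-CoA thioesterase, differed by -0.76 (SE 0.28) and SLC27A2, a transport protein known from liver and kidney, by -0.24 (SE 0.09), where both of its probe sets followed the unexpressed tags.

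PDK4, the kinase that shuts off pyruvate dehydrogenase when fat is burned, was at -1.35, -2.90 and 0.12 in the affected hearts, against 0.44, -0.10 and 0.86 in the control hearts. Affected 2, the dog with the lowest ANGPTL4, was by far the lowest, affected 3 was among the controls, and the difference was -1.78 (SE 0.80, limma adjusted p = 0.322). ACOT9, a mitochondrial thioesterase, differed by 1.10 (SE 0.47), the hormone-sensitive lipase LIPE by 0.70 (SE 0.32) and the peroxisomal transporter ABCD2 by -0.12, in a probe set that followed the unexpressed tags. Among the 78 other genes of fatty acid handling, 11 were lower without overlap between the groups (14.1%, against 41.7% of all genes). Each of these 11 had at least 1 probe set that followed the tags. In the higher direction 3 did not overlap (3.85%, against 5.8% of all genes).

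Markers of cell types were compared by their list medians, since centred values cannot be summed into a level. Adipocyte markers, some of which also handle fatty acids, had a median of 1.94, 0.05 and -0.04 in the affected hearts, against 0.05, -0.34 and -0.02 in the control hearts, with 8 of 10 above 0. On affected 1 CIDEC was at 4.00, CIDEA at 3.69 and ADIPOQ at 2.50, while PLIN1 and LIPE of the same list were at -0.01 and -0.08. LPL and CD36, which adipocytes also express, were at -0.01 and -0.08 on that array. Macrophage markers (8 of 8 above 0) were at 1.98, -0.18 and 0.09 in the affected hearts, against 0.87, -0.42 and -0.61 in the control hearts, and fibroblast markers (6 of 8 above 0) at 1.04, 0.06 and 0.67, against -0.32, -0.08 and -1.61. Endothelial markers (3 of 10 above 0) were at -0.48, -0.05 and 0.39, against -0.38, 0.54 and -0.11, with the highest list median on control 2. Control 2, highest in many fatty acid genes, was highest in CDH5, KDR, TIE1, TEK and EMCN. It was not highest in VWF, PECAM1, CLDN5, FLT1 and ENG. Cardiomyocyte markers (10 of 12 above 0) were at -0.03, 0.08 and 0.13, against 0.01, -0.07 and -0.19, a median difference of 0.17, where the fatty acid genes had -0.16. Skeletal muscle markers (2 of 7 above 0) had a median difference of -0.10, and all probe sets of MYH1, MYH2 and TNNI2 followed the unexpressed tags. CASQ1, which did not follow them, was at 0.15, 0.41 and 1.34 in the affected hearts, against -0.15, -5.04 and -3.62 in the control hearts. The part of cell composition in the fatty acid values was not tested.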

How the data were processed

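The authors' deposited table holds log2 values of 43035 probe sets on 6 arrays. The tools GCRMA and MAS5 are listed, per the submitters' processing notes, without versions or the step each served. A log2 scale is taken here from those tool names and the values' range, and the centring from the values (largest absolute median of a probe set 5e-07). No fit used the 111 probe sets of array controls. Of the other 42924, 29254 carried 1 gene symbol in the array annotation. Of the 72 probe sets used, 69 had a gene ID in the RefSeq table, all under the same symbol. Probe sets were not filtered. Genes and probe sets were each fitted with limma 3.58.1 in R 4.3.3 (lmFit, eBayes without trend, two-sided, 4 residual degrees of freedom), and p-values were adjusted over the whole table (Benjamini-Hochberg). Precision is limited by 3 arrays a group. The fits were tested on simulated arrays with independent noise in each probe set. Such arrays lack the shared movement with the unexpressed tags, so they do not test the fits under it. The genes and lists were chosen with earlier results of these data known. Values per array are given for genes at an unadjusted p under 0.05 (SLC27A6, SLC27A1 and ACAA1) and a list of 14 genes. ANGPTL4, MLYCD, DECR1, HADHB, ETFB, PDK4, PLIN3, EHHADH and, of the cell type markers, CASQ1 were added after their values were seen. Of the other pathway genes, the 8 with the smallest p are named. Of 17 other settings 16 were used, and 1 was added after seeing the data.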

Additional observations from a re-analysis of the deposited data

How the results depend on the processing

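Of 527 differences of the 31 fatty acid genes under the alternatives, 490 kept their sign, 20 genes kept it under every alternative run, and 11 did not. No fatty acid gene passed an adjusted p of 0.05 (limma) under any alternative used. With the upper 60% of probe sets by range, 1 gene of any kind passed. The planned array weights over all genes were not used, because their estimate did not converge (weights from 0.0995 to 108). With them 9 of the 31 fatty acid genes (29.0%) would have passed, and 58.9% of all genes. Weights from genes off the background were added after seeing the data, and gave ACADVL 0.032, ANGPTL4 0.10, CD36 0.039, CPT2 0.0015, ECI1 0.040, ESRRA 0.023, an uptake median of 0.039 and a carnitine shuttle median of -0.077. Median centring of each array gave ECHS1 0.036, ECI1 0.046, ESRRA 0.046, LPL 0.0031 and an all-gene median of -0.0022. Quantile normalization gave ECI1 0.042, ECI2 -0.0082, ESRRA 0.045 and an all-gene median of -0.012. ECHS1 was 0.0085 with age as covariate and 0.015 with the median of probe sets per gene, and ECI2 was -0.040 with the probe set of largest range. The all-gene median was 0.012 with the upper 60% of probe sets and 0.049 without probe sets that follow the unexpressed tags. The tag filter takes out lower probe sets by its design, and the cause of the other changes was not tested.

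Counts at an unadjusted p under 0.05 were small and varied. Fatty acid genes were 1 lower and 2 higher as reported. They were 0 lower and 0 higher with the upper 60% (against 2.98% and 6.61% of all genes). Without tag-following probe sets 0 were lower (against 2.3%), and with sex as covariate 2 were (6.45%, against 5.78%). With age as covariate 1 was higher (3.23%, against 7.43%). The largest-range probe set gave 3 lower (9.68%, against 4.12%) and 1 higher (3.23%, against 5.06%). The median of probe sets gave 0 higher (against 4.31%). Fatty acid probe sets were 5 lower and 2 higher as reported. Median centring gave 3 lower (4.17%, against 2.56% of all probe sets) and age 8 lower (11.1%, against 22.7%). Sex gave 4 higher (5.56%, against 4.74%) and the upper 60% gave 1 higher (1.47%, against 6.82%). The other pathway genes were 3 lower and 1 higher as reported. They were 2 higher with the upper 60% (3.03%, against 6.61% of all genes) and 4 higher with quantile normalization (5.13%, against 6.1%). Median centring gave 1 lower (1.28%, against 2.23%) and 3 higher (3.85%, against 6.55%). Sex gave 3 higher (3.85%, against 4.99%) and age 5 higher (6.41%, against 7.43%).

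Leaving out each dog in turn, with the spread pooled over both groups, moved ACAA2 between -0.28 and 0.010, ACADVL between -0.35 and 0.092, ANGPTL4 between -0.36 and 0.38, CD36 between -0.32 and 0.089, CPT2 between -0.44 and 0.067, ECHS1 between -0.15 and 0.064, and ECI1 between -0.14 and 0.16. ECI2 lay between -0.046 and 0.15, ESRRA between -0.12 and 0.081, FABP3 between -0.0045 and 0.30, and LPL between -0.42 and 0.26. ACADVL, CD36 and CPT2 were above 0 without control 2, and ANGPTL4 and LPL without affected 2. The electron transfer median lay between -0.28 and -0.031 and the uptake median between -0.24 and -0.0019. Fatty acid genes were 1 to 4 lower and 0 to 2 higher, their probe sets 3 to 11 lower and 0 to 3 higher, and the other pathway genes 0 to 8 lower and 1 to 6 higher. In the same fits 1.85% to 24% of all genes were lower and 2.63% to 6.97% higher, and 1.53% to 28.5% of all probe sets were lower and 2.56% to 7.22% higher. The ends of these ranges came from different fits. Without control 1, 4 fatty acid genes were lower (12.9%, against 2.32% of all genes). Without affected 2, 11 of their probe sets were lower (15.3%, against 2.86% of all). Without control 2, 3.23% of the fatty acid genes were lower against 24% of all genes, and 6.94% of their probe sets against 28.5%. The carnitine shuttle median lay between -0.43 and -0.13.

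Dogs of both groups carry the numbers 1 to 3. Deviations of same-numbered dogs correlated at 0.25, 0.16 and 0.06, and each array correlated best with its own number, which is a hint from the data and not from the design. The numbers were therefore not taken to pair the dogs. With the replicate block, 4 fatty acid genes were lower (12.9%, against 4.44% of all genes) and 1 higher (3.23%, against 5.54%) at an unadjusted p under 0.05. Of their probe sets 10 were lower (13.9%, against 5.27% of all), and the other pathway genes were 6 lower and 3 higher. No fatty acid gene passed the adjusted threshold with it.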
